A study of Mus musculus with 4 samples.

Results

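The 33 genes described here carry glucose from the plasma membrane to pyruvate and decide where that pyruvate goes. They were chosen by symbol, as glucose and lactate transporters, the enzymes of glycolysis, the regulators of phosphofructokinase (PFKFB) and of pyruvate dehydrogenase (PDK), and hypoxia-inducible factor 1 with 2 of its marker targets. The choice was made with earlier results of these data known. All 33 symbols had a row among the 47937 genes of the count table, and all 33 were among the 16240 genes with enough counts to be tested. The cells were mouse embryonic fibroblasts (MEFs), connective tissue cells cultured from mouse embryos, grown in high-glucose medium that also held pyruvate. The control group was 2 libraries labelled wild-type and untreated. The other group was 2 libraries of MEFs given 50 µM genistein, a plant isoflavone known to inhibit tyrosine kinases, for 24 h; their genotype label names only the treatment. The labels name no vehicle for the untreated libraries; in its methods for other assays the study uses the word untreated for cells given DMSO, the solvent, alone. Total RNA, depleted of ribosomal RNA, was sequenced, so nascent as well as mature transcripts could be counted, and fewer cells of a type cannot be told apart from less RNA per cell. Nothing in the labels says that the libraries of a group came from separate cultures, so the p-values measure only the spread between these libraries.

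Glycolysis traps glucose in the cell as glucose 6-phosphate, splits the sugar into a pair of triose phosphates, and oxidises these to pyruvate with a net gain of ATP. Pyruvate is then either reduced to lactate by lactate dehydrogenase and exported, or carried into mitochondria and decarboxylated by pyruvate dehydrogenase, which the PDK kinases switch off. Many steps are served by several genes, and many of these genes are known targets of the transcription factors HIF1 and MYC, which bind the short motifs ACGTG or GCGTG and CACGTG, respectively.

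The upstream sequences of 2 pairs of genes are shown first, as examples. The members of each pair catalyse the same reaction and moved in opposite directions. The same held for Pfkl and Pfkm, Eno1 and Eno2, and Pdk1 and Pdk2, whose sequences are not printed. Each run is the 250 bases before the most upstream RefSeq start on the GRCm38.p6 assembly, 5′ to 3′ on the gene's strand, and capitals mark ACGTG or GCGTG on either strand. Hk2 (chr6:82774455-82774704, minus strand) and Hk1 (chr10:62379909-62380158, minus strand) encode hexokinases. Ldha (chr7:46845554-46845803, plus strand) and Ldhb (chr6:142507958-142508207, minus strand) encode the subunits of lactate dehydrogenase.
Hk2: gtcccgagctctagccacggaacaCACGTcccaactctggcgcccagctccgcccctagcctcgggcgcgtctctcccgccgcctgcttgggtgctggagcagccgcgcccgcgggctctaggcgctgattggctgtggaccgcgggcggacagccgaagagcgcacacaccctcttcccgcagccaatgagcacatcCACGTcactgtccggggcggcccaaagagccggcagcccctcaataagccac
Hk1: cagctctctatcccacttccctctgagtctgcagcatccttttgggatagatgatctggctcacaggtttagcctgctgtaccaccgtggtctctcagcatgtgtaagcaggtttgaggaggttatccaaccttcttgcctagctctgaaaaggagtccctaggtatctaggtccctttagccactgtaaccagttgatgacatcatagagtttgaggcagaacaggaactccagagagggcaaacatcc
Ldha: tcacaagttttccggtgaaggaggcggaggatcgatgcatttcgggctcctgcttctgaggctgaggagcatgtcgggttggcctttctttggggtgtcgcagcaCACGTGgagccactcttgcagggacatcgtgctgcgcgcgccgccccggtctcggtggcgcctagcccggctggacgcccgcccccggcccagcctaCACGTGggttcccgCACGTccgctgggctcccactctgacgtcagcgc
Ldhb: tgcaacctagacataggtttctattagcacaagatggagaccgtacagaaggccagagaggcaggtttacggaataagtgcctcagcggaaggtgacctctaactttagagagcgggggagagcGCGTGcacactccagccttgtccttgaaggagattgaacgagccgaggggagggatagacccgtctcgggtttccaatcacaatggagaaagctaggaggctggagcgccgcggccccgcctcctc
The Hk2 run held ACGTG at 226 and 52 bases before the start, and the Hk1 run held neither motif. In the Ldha run, ACGTG occurred 145, 48 and 34 bases before the start, and the occurrences at 145 and 48 lie in the palindrome CACGTG, which reads as ACGTG on both strands. The Ldhb run held a single GCGTG. A search of both strands of the 300 bases from 250 before to 50 after the start found ACGTG or GCGTG in 26 of 33 members (78.8%). The same letters were in 63.6% of the windows of the tested genes that could be matched and in 43.8% of all promoter windows. They were in 14 of the 18 members that fell, 5 of the 8 that rose and all 7 without a call. ACGTG was in 44.4% of the members that fell, 37.5% of those that rose and 57.1% of those without a call. CACGTG, which contains ACGTG, was in 6 of 33 members (18.2%) against 10.3% of tested genes. By call, CACGTG was in 11.1% of the members that fell, 25% of those that rose and 28.6% of those without a call. A match is only a description of the letters in the window, and which annotated start these cells used was not analysed here.

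Transcripts of most glycolytic enzymes were lower in the genistein libraries, with a minority of isozymes and regulators higher. Of the 33 genes, 18 fell and 8 rose at an adjusted p under 0.05, and 7 had no call. The test was the quasi-likelihood F-test of edgeR, with p-values adjusted by Benjamini and Hochberg's method across every gene and repeat tested. The members that fell were 54.5% of the group, beside 38.2% of all genes tested, and those that rose were 24.2%, beside 33.5%. The median log2 fold change was −0.31 for the 33 genes and −0.03 for all genes tested. Abundant genes fell more often than others in this comparison. Among genes with a mean normalised count over 1000, 56.1% fell and 29.8% rose, and their median was −0.18; the 22 members above that level had 16 that fell, 5 that rose and a median of −0.60. The study's methods also asked for a log2 fold change beyond 1 in either direction and for a mean of more than 100 normalised counts. Hk2, Pfkl, Tpi1, Pgam1, Eno1 and Ldha fell past all 3 thresholds, 18.2% of the group beside 4.16% of genes tested, and Eno2 alone rose past them, beside 3.92%. All 6 that fell had a mean normalised count over 1000. At that level 27.3% of the 22 members fell past all thresholds, beside 6.21% of genes. Hk2, Pfkl and Eno1 remained past them when libraries were scaled by their totals alone or when repeats were left out, while Tpi1, Pgam1 and Ldha then came just short of the fold threshold. The normalised counts of the groups did not overlap for 19 members that were lower and 10 that were higher, where 44.6% of genes tested were lower and 40.7% higher in this way. An exact permutation test of 2 libraries against 2 cannot go below a p of 0.333, so the calls rest on the model across all genes.

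**Figure D1:**
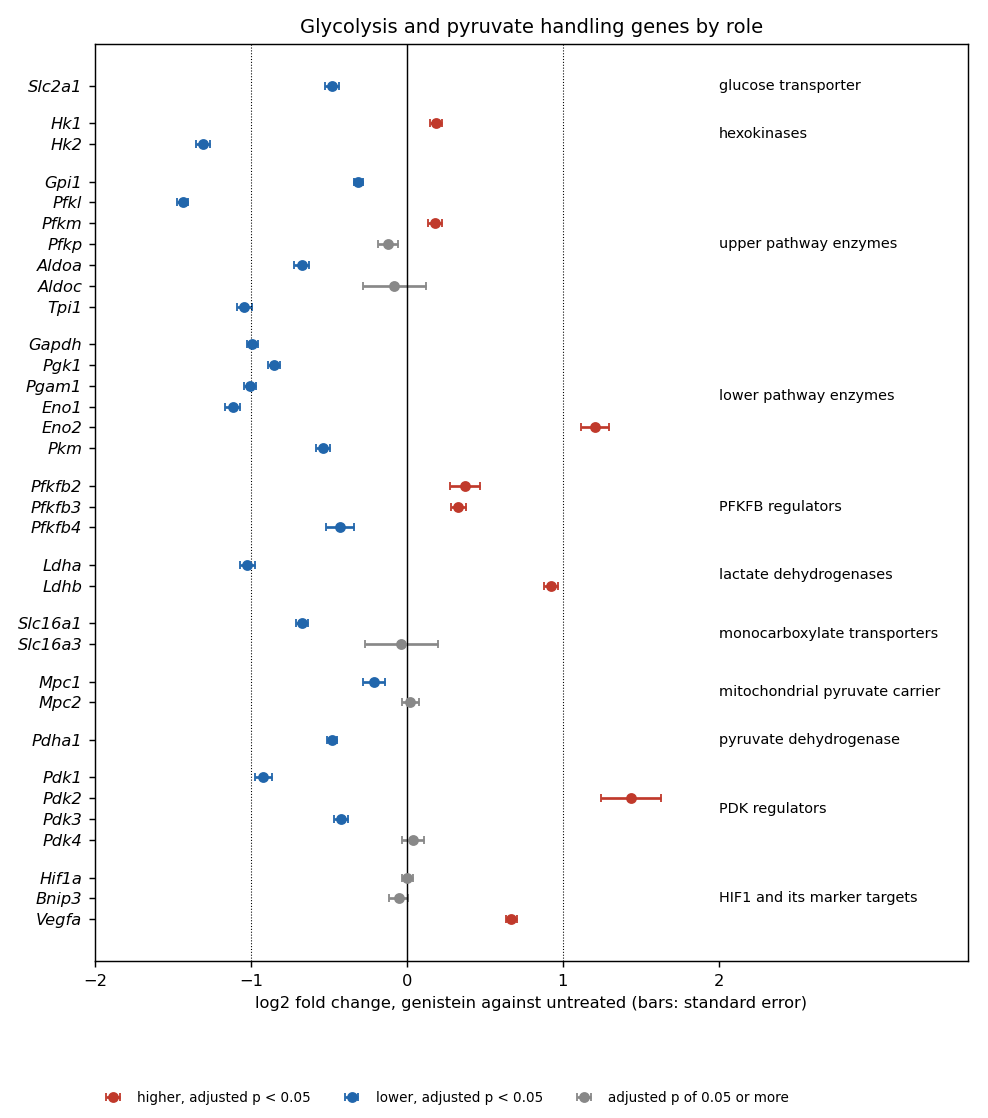
Log2 fold change (genistein against untreated) of each of the 33 genes, ordered by role, with bars of 1 standard error and colours for the call at an adjusted p under 0.05. Pfkl (−1.44) and Hk2 (−1.31) lie furthest to the left, and Pdk2 (1.44) and Eno2 (1.21) furthest to the right.

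The 4 libraries held 28591958 to 31464284 counts. The members took 0.684% and 0.669% of the gene counts of the untreated libraries and 0.463% and 0.469% of those of the genistein libraries. Log2 CPM values correlated at an r of 0.996 and 0.995 across genes within the untreated and genistein groups and at 0.960 to 0.964 between them. The cell type label was checked with marker lists. Of 10 fibroblast markers, 8 were tested; 7 fell and Dcn rose, and their summed normalised count was 280767 and 283896 in the untreated and 239152 and 234976 in the genistein libraries, while Thy1 was at 0 and Lum at no more than 10.0. Of 6 epithelial markers, Krt8, Krt14 and Krt18 fell, with a sum of 1163 and 1130 untreated and 251 and 231 with genistein; Epcam and Krt5 were at 0. Leukocyte markers summed to 84.9 and 66.7 untreated and 216 and 218 with genistein, where Cd68 was tested and rose, Cd3e and Adgre1 were at 0 and Ptprc was at most 1.01. Endothelial markers summed to 25.0 and 30.7 untreated and 85.3 and 97.2 with genistein, with Kdr tested and higher. Neural markers summed to 915 and 860 untreated and 783 and 747 with genistein, with Tubb3 tested and lower. The part of these markers in the results was not tested.

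Glucose enters fibroblasts mainly through GLUT1, the product of Slc2a1 (GRCm38 chr4:119108711-119137983, plus strand). It had normalised counts of 1776 and 1745 without and 1249 and 1279 with genistein. The groups did not overlap, as was so for the 44.6% of genes tested that were lower in both genistein libraries. For Slc2a1, the log2 fold change was −0.48 (SE 0.04, adjusted p = 6.9e-08 by edgeR). Hexokinase phosphorylates the sugar once it is inside. Hk2 (GRCm38 chr6:82725025-82774454, minus strand), the inducible hexokinase, had normalised counts of 3094 and 2993 untreated and 1179 and 1285 with genistein, which is 2.47-fold lower (log2 fold change −1.31, SE 0.05, adjusted p = 3.8e-13 by edgeR). Hk1 (GRCm38 chr10:62268855-62379908, minus strand), the hexokinase found in most tissues, went from 2123 and 2048 to 2424 and 2323, a rise of 0.19 on the log2 scale (SE 0.04, adjusted p = 0.00058 by edgeR). The pair thus moved in opposite directions.

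The upper enzymes turn glucose 6-phosphate into triose phosphates. Of these 7 genes, 4 fell and 1 rose, where 38.2% of all genes tested fell and 33.5% rose. Among genes with a mean normalised count over 1000, 56.1% fell. Gpi1, glucose-6-phosphate isomerase, went from normalised counts of 6591 and 6491 to 5326 and 5223 (log2 fold change −0.31, SE 0.03, adjusted p = 1.2e-07 by edgeR). Phosphofructokinase, which commits the sugar to glycolysis, has a liver, a muscle and a platelet form. Pfkl (GRCm38 chr10:77986947-78010083, minus strand), the liver form, showed the largest fall of the 33 genes, from 6982 and 6909 untreated to 2551 and 2574 with genistein, 2.71-fold lower (log2 fold change −1.44, SE 0.03, adjusted p = 1.9e-15 by edgeR). Its fall was larger than that of 97.9% of genes tested. Pfkm, the muscle form, rose from 1554 and 1514 to 1768 and 1709 (log2 fold change 0.18, SE 0.04, adjusted p = 0.0016 by edgeR). That small call was lost with DESeq2 (adjusted p = 0.059). The platelet form, Pfkp, had counts of 570.4 and 567 untreated and 513 and 532 with genistein and no call (log2 fold change −0.12, adjusted p = 0.095 by edgeR). Aldolase splits the phosphorylated hexose. Aldoa fell from 19188 and 18258 to 11763 and 11715 (log2 fold change −0.67, SE 0.05, adjusted p = 2.0e-09 by edgeR). Aldoc, the brain aldolase, was scarce, at 52.9 and 56.1 untreated and 59.1 and 43.5 with genistein, overlapped between groups and had no call (adjusted p = 0.74 by edgeR). Tpi1 (GRCm38 chr6:124810586-124814296, minus strand), which interconverts the triose phosphates, fell from 16881 and 16166 to 8021 and 8025, 2.06-fold lower (log2 fold change −1.04, SE 0.05, adjusted p = 7.3e-12 by edgeR).

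The lower enzymes, from triose phosphate to pyruvate, included 5 genes of 6 that fell, with log2 fold changes of −1.12 to −0.54, and Eno2, which rose. Over all genes tested, 38.2% fell and 33.5% rose, and 56.1% of those with a mean normalised count over 1000 fell. Gapdh (GRCm38 chr6:125161715-125166467, minus strand), the dehydrogenase often used as a reference gene, had normalised counts of 4943 and 4730.2 untreated and 2469.9 and 2399 with genistein. Its log2 fold change was −0.99 (SE 0.04, adjusted p = 7.7e-13 by edgeR), just short of the fold threshold, and it passed that threshold at −1.02 with DESeq2. Pgk1, phosphoglycerate kinase, went from 4916 and 4698 to 2603 and 2727 (log2 fold change −0.85, SE 0.04, adjusted p = 6.0e-12 by edgeR). Pgam1, phosphoglycerate mutase, went from 9983 and 9653 to 4927 and 4858 (log2 fold change −1.005, SE 0.04, adjusted p = 1.1e-12 by edgeR). Enolase makes phosphoenolpyruvate, and its genes diverged. Eno1 (GRCm38 chr4:150236721-150248879, plus strand), the ubiquitous form, fell from 13504 and 12694 to 5977 and 6097, 2.17-fold lower (log2 fold change −1.12, SE 0.05, adjusted p = 2.5e-12 by edgeR). Eno2 (GRCm38 chr6:124760053-124769673, minus strand), the neuronal form, rose from 184 and 186 to 439 and 416, 2.31-fold higher (log2 fold change 1.21, SE 0.09, adjusted p = 3.7e-09 by edgeR). Pkm, pyruvate kinase, which makes pyruvate itself, fell from 40184 and 38943 to 27341 and 27168 (log2 fold change −0.54, SE 0.04, adjusted p = 1.6e-08 by edgeR).

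Several of these genes have near-identical copies in the genome, with which reads could be shared. Copies were transcripts from elsewhere in the genome, pseudogenes or not, that were at least 95% identical to the member over at least 200 bases, and 11 members had at least 1. A further 3 members, Pdha1, Pfkfb2 and Pfkp, matched only a gene that overlaps their own locus. Gapdh had 74, which together held normalised counts of 3434 and 3318 untreated and 2149 and 2084 with genistein. Eno1b, annotated as a protein-coding gene, matched Eno1 at 99.5% over 1736 bases, and the 3 copies of Eno1 summed to 13754 and 13044 untreated and 6127 and 6346 with genistein, as much as Eno1 itself. The 2 copies of Pgk1 held more than Pgk1, with 8649 and 8503 untreated and 4980 and 5081 with genistein. When the copies were added to their parents, the log2 fold change was −0.85 for Gapdh, −0.80 for Pgk1, −0.99 for Pgam1 and −1.11 for Eno1, so all 4 stayed lower and Pgam1 moved just short of the fold threshold. The levels of these genes are uncertain, since how the reads were split between parent and copy cannot be seen in a count table.

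The PFKFB genes encode bifunctional enzymes that make or degrade fructose 2,6-bisphosphate, the strongest activator of phosphofructokinase. Pfkfb3, whose product mostly makes it, rose from normalised counts of 1089.9 and 1135 to 1410.3 and 1388 (log2 fold change 0.33, SE 0.05, adjusted p = 1.5e-05 by edgeR). Pfkfb2, the heart form, rose from 289.7 and 346 to 388 and 435 (log2 fold change 0.37, SE 0.09, adjusted p = 0.0021 by edgeR). Pfkfb4, first known from testis, fell from 323 and 330.3 to 235 and 251 (log2 fold change −0.43, SE 0.09, adjusted p = 0.00047 by edgeR). All 3 moved by less than 0.5 on the log2 scale. None of their groups overlapped, but 44.6% of all genes tested were lower and 40.7% higher without overlap.

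The genes that dispose of pyruvate as lactate also held a pair with opposite directions. Ldha (GRCm38 chr7:46841475-46855627, plus strand), the subunit that favours lactate formation, had normalised counts of 23268 and 22767 untreated and 11318 and 11339.6 with genistein, 2.03-fold lower (log2 fold change −1.02, SE 0.05, adjusted p = 8.6e-12 by edgeR). Ldhb (GRCm38 chr6:142490249-142507957, minus strand), the subunit that favours lactate oxidation, rose from 1355 and 1284 to 2506 and 2508, 1.90-fold higher (log2 fold change 0.93, SE 0.04, adjusted p = 9.3e-12 by edgeR). As printed above, the Ldha run held 3 places with ACGTG, and the Ldhb run held only GCGTG. Other genes ran the other way: Pfkm and Pdk2, which rose, held ACGTG, and Pfkl and Pdk1, which fell, held only GCGTG. A link between motif and direction was not tested. Slc16a1 encodes MCT1, which carries lactate and pyruvate across the plasma membrane, and it fell from 4035 and 3810.2 to 2439 and 2486 (log2 fold change −0.67, SE 0.04, adjusted p = 1.3e-10 by edgeR). Slc16a3 encodes MCT4, the lactate exporter of strongly glycolytic cells, and it was scarce in both groups, at 38.0 and 31.8 untreated and 34.7 and 33.4 with genistein, with no call (adjusted p = 0.90 by edgeR).

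**Figure D2:**
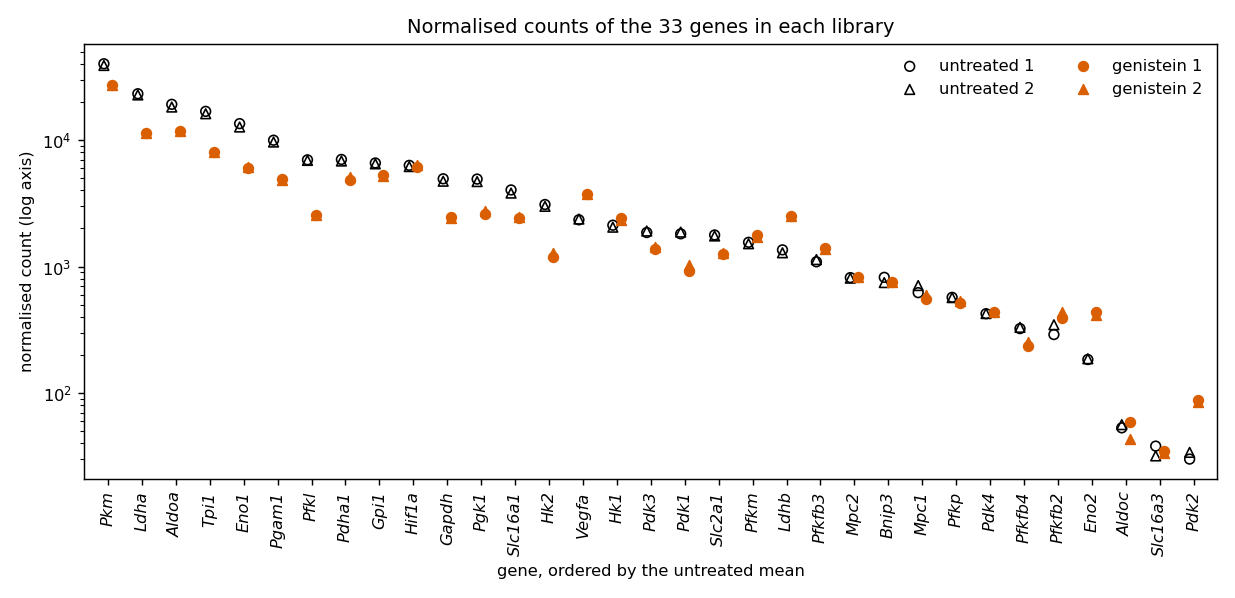
Normalised counts of each of the 33 genes in every library on a log10 axis, with open and filled points for untreated and genistein libraries. Replicates nearly coincide for most genes; Ldha sits at 23268 and 22767 untreated against 11318 and 11340 with genistein, and Ldhb at 1355 and 1284 against 2506 and 2508.

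Pyruvate enters mitochondria through a carrier made of the Mpc1 and Mpc2 products. Mpc1 had normalised counts of 621 and 707 untreated and 550.4 and 597 with genistein, a fall of 0.21 on the log2 scale (SE 0.07, adjusted p = 0.015 by edgeR). The call was lost under 5 alternatives, namely with library totals alone (adjusted p = 0.091), with DESeq2 (0.086), without untreated replicate 2 (0.21), without genistein replicate 1 (0.092) and when its pseudogene copy was added (0.073). Mpc2 had 817 and 809 untreated and 828 and 825 with genistein and no call (log2 fold change 0.02, adjusted p = 0.72 by edgeR). Pdha1 encodes the catalytic α subunit of pyruvate dehydrogenase, and it fell from 7031 and 6832 to 4823 and 5121 (log2 fold change −0.48, SE 0.03, adjusted p = 2.5e-09 by edgeR).

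The PDK kinases phosphorylate and inactivate pyruvate dehydrogenase, and their genes did not move together. Pdk1 (GRCm38 chr2:71873224-71903858, plus strand), a HIF1 target, fell from normalised counts of 1814 and 1872 to 919 and 1029, 1.89-fold lower (log2 fold change −0.92, SE 0.05, adjusted p = 2.3e-10 by edgeR). Pdk3 fell from 1858 and 1909 to 1378 and 1430.2 (log2 fold change −0.42, SE 0.04, adjusted p = 2.4e-07 by edgeR). Pdk2 (GRCm38 chr11:95026258-95041354, minus strand) rose from 30.0 and 33.9 to 88.1 and 85.0, 2.71-fold higher (log2 fold change 1.44, SE 0.19, adjusted p = 4.2e-06 by edgeR). Its mean normalised count of 59.3 was under the minimum of 100, so it did not count among the genes past all thresholds. Pdk4, the kinase induced by fasting, had 424 and 425 untreated and 433 and 438 with genistein and no call (log2 fold change 0.04, adjusted p = 0.63 by edgeR).

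Hif1a (GRCm38 chr12:73901375-73947530, plus strand) encodes the oxygen-regulated subunit of HIF1, which is controlled mainly at the level of protein stability. It had normalised counts of 6312 and 6174 untreated and 6145 and 6376 with genistein, which overlapped, and it had no call (adjusted p = 0.93 by edgeR). Of the marker targets outside glycolysis, 1 rose and 1 had no call. Vegfa, the angiogenic growth factor, rose from 2342 and 2374 to 3777 and 3719 (log2 fold change 0.67, SE 0.04, adjusted p = 5.4e-11 by edgeR). Bnip3, a mitophagy receptor, had 821 and 746 untreated and 758 and 757 with genistein and no call (log2 fold change −0.05, adjusted p = 0.47 by edgeR).

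Exons of 12 of the 33 members overlap those of another gene, and the strand setting of the counting was not stated. The overlap covered 23.1% of the exon bases of Mpc1, 17.4% of Pfkfb2, 16.1% of Pdha1, 11.5% of Gpi1 and 10.2% of Pfkm, and at most 5.6% of any other member. Reads in those stretches cannot be assigned to 1 gene with certainty.

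Because these isozymes differ in length, their levels were compared as normalised counts per kilobase of exon. On that scale Pkm (8035 and 7787 in untreated replicates 1 and 2), Ldha (7029 and 6878) and Aldoa (6592 and 6272) stood highest in the untreated libraries, and Slc16a3 (7.14 and 5.97) and Pdk2 (9.47 and 10.7) lowest. With genistein the highest were Pkm (5467 and 5433), Aldoa (4041 and 4024) and Ldha (3419 and 3426). Within a family, the share of each gene was its part of the summed counts per kilobase of that family, counting only family members among the 33 genes, so that Eno3, for example, is not in the enolase sum. Hk2 made up 67.6% ± 0.046 (SD, n = 2) of the hexokinase pair in untreated libraries and 42.6% ± 2.23 with genistein, while the summed level of the pair was lower by a log2 ratio of −0.64. Pfkl went from 67.3% and 67.6% of phosphofructokinase to 40.2% and 41.2%, and Pfkm from 29.9% and 29.6% to 55.7% and 54.6%. Ldhb went from 10.9% and 10.6% of lactate dehydrogenase to 31.8% and 31.8%. Eno2 went from 1.53% and 1.65% of the enolase pair to 7.74% and 7.24%. The pair was counted without the near-identical copies of Eno1, which held about as many counts as Eno1 itself, so the Eno2 share is uncertain. In each of these families the groups did not overlap. The exact two-sided permutation p was 0.333, the smallest that 2 libraries against 2 allow. Lack of overlap says little here, since shares that hardly moved had it too. The Aldoa share of aldolase, with means of 99.7% untreated and 99.6% with genistein, is an example. Within a pair the shares are complements, so each pair holds 1 independent value per library. The shares depend on which length is used. With the longest annotated transcript in place of all exons, Pfkl made up 75.7% untreated and 50.9% with genistein and so stayed the larger form in both groups, and Hk2 made up 53.1% and 28.7%.

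**Figure D3:**
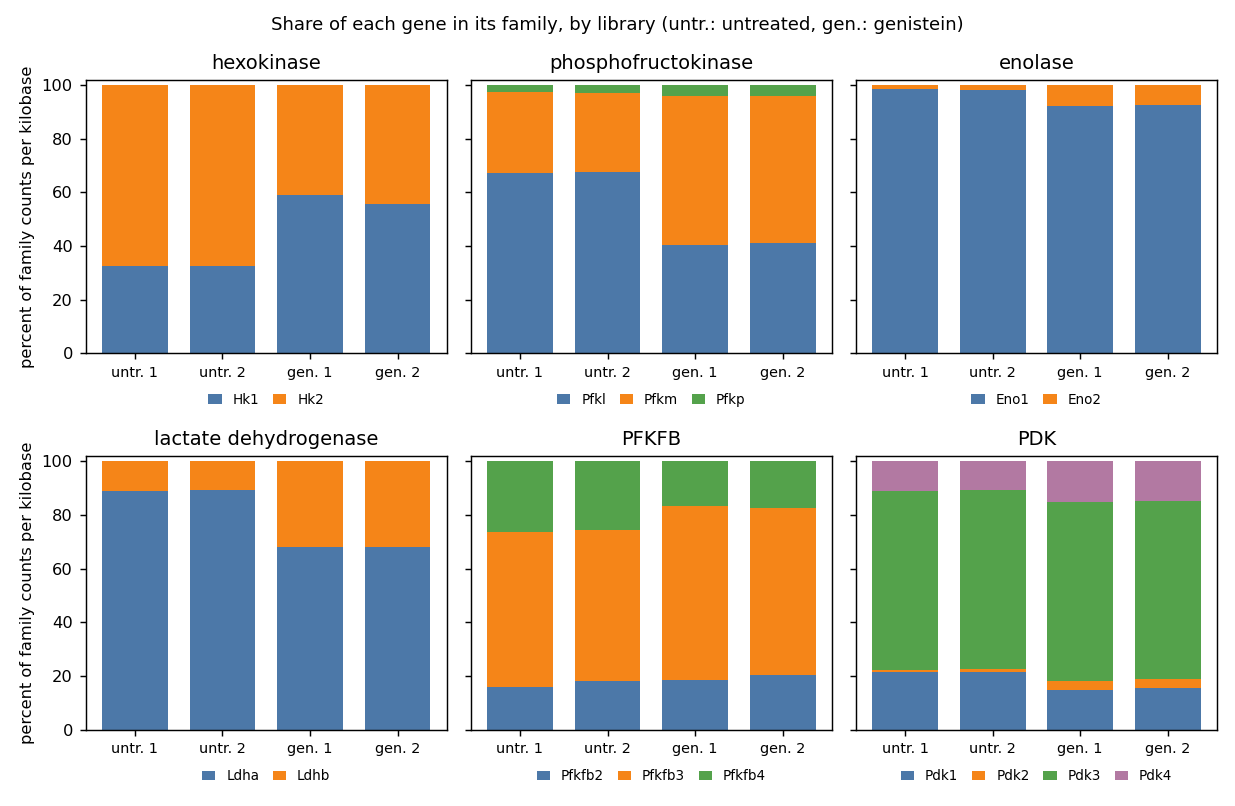
Share of each gene in its family, in percent of the family's summed normalised counts per kilobase of exon (axis from 0 to 100), for hexokinase, phosphofructokinase, enolase, lactate dehydrogenase, PFKFB and PDK genes in each of the 4 libraries. The Ldhb share is 10.9% and 10.6% in the untreated and 31.8% in both genistein libraries, and the Pdk3 share is about the same in all (means 66.7% and 66.5%).

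The regulators were read on the same scale. The mean Pfkfb3 share of the PFKFB genes was 57.1% untreated and 63.5% with genistein, and the Pfkfb4 share was 26.0% and 17.1%. The mean Pdk1 share of the PDK genes was 21.5% and 15.2%, and the Pdk2 share was 0.914% and 3.32%. The summed level changed by a log2 ratio of 0.18 for PFKFB, −0.42 for PDK, −0.71 for phosphofructokinase and −0.63 for lactate dehydrogenase. For Eno1 and Eno2, without Eno3 or the copies of Eno1, it was −1.03.

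A further 93 genes of neighbouring pathways were read in the same fit, of which 69 were tested. Of these, 35 fell, 24 rose and 10 had no call, with a median log2 fold change of −0.16. Past all thresholds, 3 rose and 2 fell. Among all genes tested, 38.2% fell and 33.5% rose, and 4.16% fell and 3.92% rose past all thresholds. The counts for each list below stand beside those same shares. Of 9 tested genes of the other glucose transporters and sugar entry, 4 rose and 2 fell, and with DESeq2 3 rose and none fell. Slc2a9, a urate and hexose transporter, rose from normalised counts of 13.0 and 9.53 to 67.5 and 63.8 (log2 fold change 2.53, adjusted p = 2.4e-07 by edgeR), and Slc2a8, an intracellular transporter, rose by 0.95 on the log2 scale (adjusted p = 2.3e-07 by edgeR). Adpgk, an ADP-dependent glucokinase, fell by 0.14 (adjusted p = 0.027 by edgeR), a call lost under 6 alternatives. Slc2a4, the insulin-responsive transporter, rested on raw counts of 2 and 2 untreated and 11 and 10 with genistein, and Slc2a3, the neuronal one, on 16 and 15 against 7 and 0; both calls were lost with DESeq2 (adjusted p = 0.10 and 0.29), and that of Slc2a3 without genistein replicate 2 (0.060). These 2 genes are too thinly covered to size a change.

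Of 9 tested genes for remaining glycolytic steps and gluconeogenesis, 6 fell and 2 rose. Eno3, the muscle enolase, fell from normalised counts of 2725 and 2615 to 1298 and 1209 (log2 fold change −1.09, adjusted p = 2.8e-12 by edgeR). Pgm2 and Pgm1, both named as phosphoglucomutases, fell by 0.57 and 0.40 on the log2 scale. Pcx encodes pyruvate carboxylase, which makes oxaloacetate from pyruvate, and it rose from 546 and 528 to 1229 and 1201 (log2 fold change 1.18, adjusted p = 2.2e-11 by edgeR). Pck2, mitochondrial phosphoenolpyruvate carboxykinase, rose by only 0.11 on the log2 scale, a call lost under 6 alternatives, among them DESeq2 (adjusted p = 0.34) and the replicate block (0.053). Of 12 tested genes of lactate and pyruvate metabolism, 7 fell and 3 rose. The falls were led by Dlat, the acetyltransferase of the pyruvate dehydrogenase complex (log2 fold change −0.81), Pdp2, a phosphatase that reactivates that complex (−0.76), and Me2, mitochondrial malic enzyme (−0.64). Those that rose were Me1, cytosolic malic enzyme (0.40), Pdp1, the other phosphatase (0.34, lost with DESeq2 at an adjusted p of 0.051), and Bsg, the chaperone of MCT1 (0.16, lost without untreated replicate 2 at 0.093).

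In the pentose phosphate pathway, which makes NADPH and ribose, 5 of 8 tested genes fell and none rose by edgeR's quasi-likelihood test; the largest falls were Rpia (−0.45), Pgls (−0.43) and Tkt (−0.30), on the log2 scale. None rose at an unadjusted p under 0.05 or with DESeq2 either, but Pgd and Rpe rose with library totals alone (log2 fold change 0.14 and 0.15) and with genes alone (0.11 and 0.12). Under the same settings the falls of G6pdx (adjusted p = 0.26 and 0.052) and Taldo1 (0.48 and 0.15) were lost, which left 3 that fell and 2 that rose, and Taldo1 was also not called with DESeq2 (0.074). Of 8 glycerol phosphate and hexosamine genes, 4 rose and 4 fell with edgeR, but with DESeq2 none rose and 3 fell. Gnpnat1, an enzyme of UDP-N-acetylglucosamine synthesis, fell by 0.49 and Gpd1l, related to glycerol-3-phosphate dehydrogenase, by 0.48 on the log2 scale. Gpd1, the cytosolic glycerol-3-phosphate dehydrogenase, fell by 1.04, a call lost with DESeq2 (adjusted p = 0.14) and without untreated replicate 1 or genistein replicate 2. Gfpt2, Gpd2 and Pgm3 rose by 0.39, 0.13 and 0.12, and all 3 calls were lost with DESeq2 (adjusted p = 0.24, 0.081 and 0.36), as was the fourth rise, that of Gfpt1 (0.23); the call of Pgm3 was also lost with the replicate block (0.051). Genes that control HIF or are known targets of it also split, with 11 that rose and 11 that fell of 23 tested. Epas1, which encodes HIF2α, rose from normalised counts of 27.0 and 16.9 to 136 and 151 (log2 fold change 2.69, adjusted p = 4.5e-09 by edgeR). Ddit4, an inhibitor of mTORC1 signalling, rose from 466 and 464 to 1969 and 1889.8 (log2 fold change 2.05, adjusted p = 1.5e-14 by edgeR), and Ndrg1, a stress-responsive gene, from 1037 and 956 to 2358 and 2176 (log2 fold change 1.19, adjusted p = 7.3e-12 by edgeR). Higd1a, a mitochondrial protein gene, fell from 819 and 796 to 354 and 408 (log2 fold change −1.09, adjusted p = 7.8e-10 by edgeR). Egln3, a prolyl hydroxylase that marks HIF for degradation, fell by 0.86 and Ankrd37 by 0.84 on the log2 scale, the latter not called with DESeq2 (adjusted p = 0.065).

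**Figure D4:**
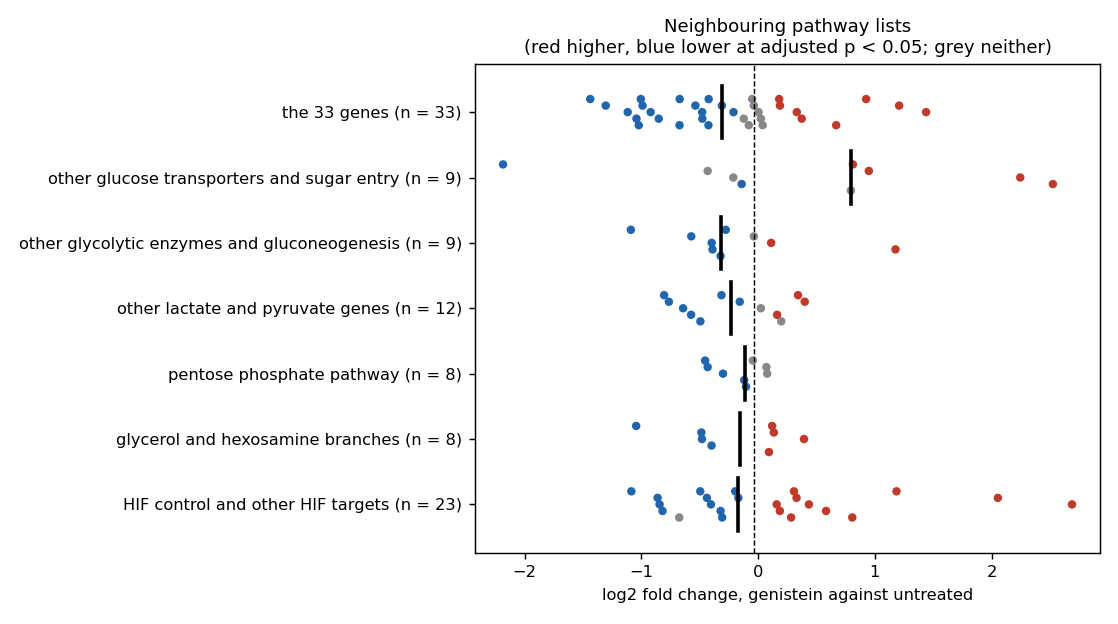
Log2 fold change (genistein against untreated) of every tested gene of the 33 and of the neighbouring pathways, 1 point per gene and 1 row per list; the black bar is the median of the list and the dashed line the median of all genes tested (−0.03). The row of the 33 genes has its bar at −0.31, and the HIF list spans both directions, with Epas1 at 2.69 on the right. Within the 33, the 17 enzymes from hexokinase to lactate dehydrogenase have a median of −0.67, which is not drawn.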

How the data were processed

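Per the labels and the study's methods, the authors prepared stranded, ribosomal RNA-depleted libraries, sequenced paired reads of 150 bases, trimmed them with Trim Galore 0.4.0, aligned them with STAR 2.5.2 to mm10 (GRCm38) allowing up to 100 alignments, and counted them with TEtranscripts 1.5.1 on GENCODE M9 genes and repeats. The deposited values are raw counts per gene or repeat subfamily, not normalised. The strand setting and how reads with several alignments were shared are not given in the sources used here, so copies and overlapping genes are uncertain. The table had 49383 entries; 1 without a name, with 0.00208% to 0.00314% of a library's counts, was left out.

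Genes and repeats were fitted together with edgeR 4.0.16 (R 4.3.3): filterByExpr by group kept 16240 genes and 1118 repeats, libraries were scaled by TMM, and genistein was compared with untreated by the quasi-likelihood test, adjusted by Benjamini and Hochberg's method. To normalise, each count was divided by its library's effective size and rescaled to the average of the 4 effective sizes. The standard error is the size of the log2 fold change divided by the square root of F. In a simulated set of 17043 entries, 196 of them changed by 1 on the log2 scale, 85.7% of these were recovered, with 11 false calls. The simulation gave all entries 1 dispersion and changed few of them. In the real data 38.2% of genes tested fell and 33.5% rose. It therefore does not measure the rate of false calls or the scaling in the real data. Symbols, lengths and coordinates came from GENCODE M21 on GRCm38, copies from blastn 2.17.0, and promoter windows (33 of 33 members matched) from RefSeq. In the neighbouring pathways and HIF genes, up to 3 genes a list were named in each direction, those with the largest log2 fold change among the called. The members and lists were chosen with earlier results of these data known. Alternatives were DESeq2 1.42.0, its size factors, library totals, no repeats, no filter, a replicate block, each library left out, another fold threshold and transcript length, and, chosen after seeing the data, copies added to parents. Reads carried no molecular identifiers, so PCR duplicates may add to the counts.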

Additional observations from a re-analysis of the deposited data

How the results depend on the processing

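The counts of members that rose (8) and fell (18) stayed within 1.5 times under every alternative run. With library totals alone, 3 members fell past all thresholds, and with genes alone 3, against 6. With an absolute log2 fold change over 0.58, 3 members rose and 11 fell past the thresholds. The share of all genes at that threshold was not computed, so these counts cannot be set beside it. With DESeq2, 15 neighbouring genes rose, against 24. Over all genes tested, the share that rose was 20.5% with DESeq2, against 33.5% with edgeR. Leaving out 1 library gave 8 members that rose, 17 to 18 that fell, 5 to 7 that fell past all thresholds, and 19 to 23 and 31 to 33 neighbouring genes that rose and fell; the lone library was then assumed to vary like the other group. The labels do not say that a replicate number marks a shared batch. With 2 libraries a group, only 1 independent value bears on pairing (r = −0.026 between the deviations of same-numbered libraries), which cannot settle it. With the replicate block, 8 members rose and 18 fell, 1 and 6 past all thresholds, and 22 and 35 neighbouring genes rose and fell. Over all genes tested with the block, 32.9% rose and 37.8% fell. Sign changes were limited to uncalled genes of small or uncertain change on the log2 scale: Hif1a at −0.0052 (DESeq2 size factors), −0.022 (no filter) and −0.021 (DESeq2); Mpc2 at −0.0023 (no filter) and −0.00072 (DESeq2); Pdpr at −0.0028 and −0.0015 (the same settings); with library totals alone Slc16a3 and Pfkfb1 at 0.033, Bnip3 at 0.019 and H6pd at 0.024; and with genes alone Slc16a3 at 0.0071 and Pfkfb1 at 0.0068. Without 1 library, the log2 fold change ranged from −0.022 to 0.035 for Hif1a, −0.16 to 0.096 for Slc16a3, −0.12 to 0.016 for Bnip3, −0.16 to 0.089 for Pfkfb1, −0.58 to 0.11 for Hkdc1 and −0.32 to 0.12 for Aldoc. The causes were not tested. Genes under about 100 normalised counts, such as Pdk2, Aldoc and Slc16a3, are limited by depth.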
